A study of Mus with 4 samples.

Results

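Peaks of m6A-enriched RNA that fell on unnamed, Gm or Rik genes were examined in interscapular brown adipose tissue (iBAT). A peak belonged to this group when the gene name deposited with it was empty (unnamed), was Gm followed only by digits (Gm), or ended in Rik (Rik). These 3 naming classes held 3410 of the 37093 peaks in the 2 deposited lists, 1748 of 18400 in the *Wtap* flox/flox list and 1662 of 18693 in the *Wtap*-BKO list. All other peaks are called named peaks below. The rule used the gene name alone and no measured value.

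The MeRIP-seq experiment compared iBAT of 8-week-old C57BL/6 mice carrying *Wtap* flox/flox alone with iBAT of *Wtap*-BKO mice, which carry *Wtap* flox/flox and *Ucp1*-iCre. WTAP is a subunit of the nuclear complex that writes m6A, and the *Ucp1* promoter restricts the Cre to brown adipocytes, so other cells of the tissue keep *Wtap*. Each list rests on a single immunoprecipitate (IP) and a single input, pools of 8 mice, so there were no replicates and no difference between genotypes could be tested. Of 11 brown adipocyte marker genes, 11 had a peak in the *Wtap* flox/flox list and 10 in the *Wtap*-BKO list, where *Elovl3*, a fatty acid elongase of brown fat, had none. Over all genes, 17.7% of those with a *Wtap* flox/flox peak had none in the *Wtap*-BKO list, so this single missing marker does not stand out. In a whole tissue, fewer cells of a type and less RNA per cell cannot be told apart, and peak lists do not separate the level of a transcript from its methylation. Sequencing depth is unknown.

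N6-methyladenosine (m6A) is the most abundant internal modification of mRNA and is also found on long noncoding RNAs (lncRNAs), such as the nuclear transcripts Malat1 and Neat1. Pseudogenes are copies of genes that have lost their original function, and processed pseudogenes arose from spliced mRNA, so their sequence is close to that of an expressed parent gene. Gm and Rik symbols are placeholders of mouse annotation. Gm symbols mark predicted gene models, among them read-through transcripts that join neighbouring genes, and Rik symbols mark genes first known from the RIKEN cDNA collection. In these lists the unnamed genes had only an Ensembl identifier, and even Malat1 and Neat1 were among them.

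The unnamed class was the largest, with 1283 peaks on 948 genes in the *Wtap* flox/flox list and 1232 peaks on 955 genes in the *Wtap*-BKO list. Rik genes had 282 peaks on 157 genes and 249 peaks on 144 genes, and Gm genes had 183 peaks on 106 genes and 181 peaks on 109 genes. The count was thus lower in the *Wtap*-BKO list by a ratio of 0.96 for unnamed, 0.989 for Gm and 0.883 for Rik peaks, whereas that of named peaks was 1.023. Together the 3 classes made up 9.5% of the *Wtap* flox/flox list (95% Wilson interval 9.08 to 9.93) and 8.89% of the *Wtap*-BKO list (8.49 to 9.31). All intervals here cover counting error only and treat peaks as independent. Unnamed genes carried fewer peaks each than the rest, 1.35 and 1.29 per gene in the 2 lists against 1.95 and 2.002 for named genes.

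Peaks on unnamed and Gm genes were shorter than peaks on Rik or named genes in the *Wtap* flox/flox list. The median number of exonic bases was 200 for unnamed peaks (quartiles 148 and 298), 210 for Gm peaks (150 and 330) and 270.5 for Rik peaks (180 and 419). Named peaks had a median of 241 bases (179 and 390). Every class was shorter in the *Wtap*-BKO list, with medians of 181, 180, 211 and 211 bases in the same order. The Rik class shortened by 59.5 bases at the median, against 30 bases for Gm and named peaks and 19 bases for unnamed peaks. Summed over all its peaks, the exonic length of a class in the *Wtap*-BKO list was 0.889 of that in the *Wtap* flox/flox list for unnamed, 0.894 for Gm, 0.745 for Rik and 0.911 for named peaks.

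Unnamed peaks were found in the other list less often than the other classes. A peak counted as found when 1 or more of its exonic bases lay, strand for strand, in a peak of the other list, which held for 67.8% of all *Wtap* flox/flox peaks and 68% of all *Wtap*-BKO peaks. Of the 1283 unnamed *Wtap* flox/flox peaks, 701 were found (54.6%, Wilson interval 51.9 to 57.3). The share was 64.5% for Gm peaks (118 of 183, 57.3 to 71.1) and 63.1% for Rik peaks (178 of 282, 57.3 to 68.5). Unnamed minus Gm gave -9.84 percentage points (Newcombe interval of the difference -17.0 to -2.18) and unnamed minus Rik gave -8.48 points (-14.6 to -2.11). Against the 69.0% of named peaks the unnamed share differed by -14.3 points (-17.2 to -11.5). The interval of the difference from named peaks also left out 0 for Rik (-11.7 to -0.39) but held 0 for Gm (-11.7 to 2.11).

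In the opposite direction, 698 of 1232 unnamed *Wtap*-BKO peaks were found (56.7%, 53.9 to 59.4), as were 120 of 181 Gm peaks (66.3%, 59.1 to 72.8) and 179 of 249 Rik peaks (71.9%, 66.0 to 77.1). The unnamed class was again below the others, with differences of -9.64 points from Gm (-16.7 to -1.97) and -15.2 points from Rik (-21.1 to -8.74). Gm and Rik shares could not be separated in either list, with differences of 1.36 points (-7.62 to 10.1) and -5.59 points (-14.5 to 3.17). The 2 directions rest on the same matches, so a class has nearly equal numbers found in both, and its shares differ with the number of peaks listed. For Rik, 104 peaks of the *Wtap* flox/flox list and 70 of the *Wtap*-BKO list were not found. The intervals of these differences are not adjusted for their number. The unnamed share was not the lowest of the 3 classes under 3 of the settings tried: for *Wtap* flox/flox peaks with a false discovery rate (FDR, as deposited for each peak) under 1e-05 (Rik 72.4%, unnamed 74.3%), for *Wtap* flox/flox peaks weighted to the strength and length of named peaks (Rik 61.3%, unnamed 62.2%), and for *Wtap*-BKO peaks that shared no base with another gene's peak (Gm 52.1%, unnamed 56.2%).

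**Figure D1:**
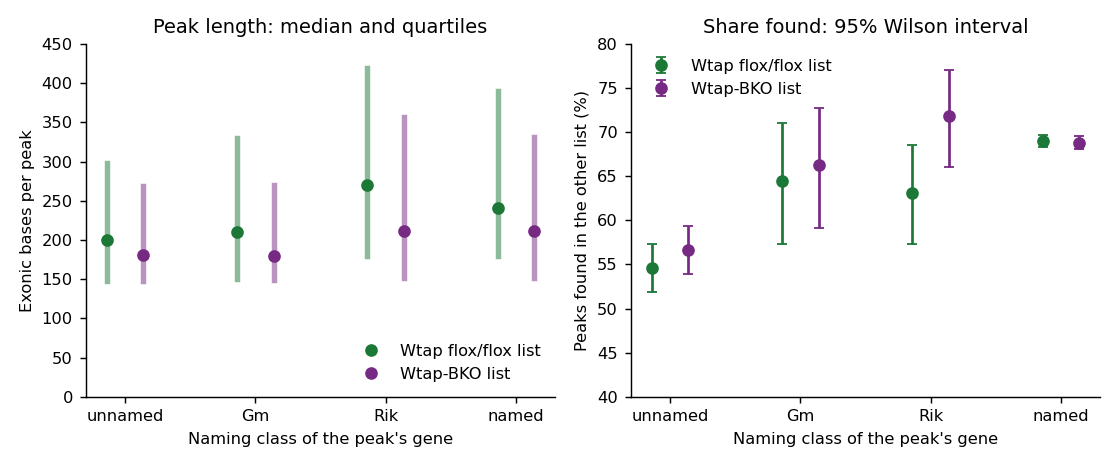
Exonic bases per peak (left, points are medians and bars quartiles) and share of peaks found in the other list in percent (right, bars are 95% Wilson intervals; the axis starts at 40), for the 3 naming classes and the named peaks in each list. Unnamed peaks have the lowest share found in both lists, 54.6% and 56.7%, and every class is shorter in the *Wtap*-BKO list.

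Peaks weak by FDR were missed more often in every class, and unnamed peaks ranked weaker by FDR. Their fold enrichment was not lower. The median fold of unnamed and named peaks was 7.87 and 6.47 in the *Wtap* flox/flox list, and 4.85 and 4.63 in the *Wtap*-BKO list. Peaks were ranked within a list by FDR and split into 5 strength groups of equal size. The weakest group held 31.1% of the unnamed *Wtap* flox/flox peaks and the strongest 11.8%, whereas 17.0% and 23.0% of the Rik peaks lay there. The share of unnamed *Wtap* flox/flox peaks found was 88.2% in the strongest group and 28.6% in the weakest, while that of named peaks was 90.7% and 43.3%. In the *Wtap*-BKO list the unnamed and named shares were 90.7% and 97.9% in the strongest group, 71.0% and 88.0% in the next, and 32.9% and 36.5% in the weakest. The gap to named peaks was thus widest among weak peaks in the *Wtap* flox/flox list, but among stronger peaks in the *Wtap*-BKO list. Length went the same way: 37.6% of unnamed *Wtap* flox/flox peaks under 150 bases were found, 53.9% of those from 150 to under 300 bases and 76.3% of those of 300 bases or more. Named peaks weighted to the strength and length of the unnamed peaks had a share of 62.0% in the *Wtap* flox/flox list, which left a difference of -7.33 points in place of -14.3, and in the *Wtap*-BKO list -6.54 points remained in place of -12.2. For Gm peaks the same step left differences of -0.132 and 1.95 points, and for Rik peaks -7.82 and 3.05 points.

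**Figure D2:**
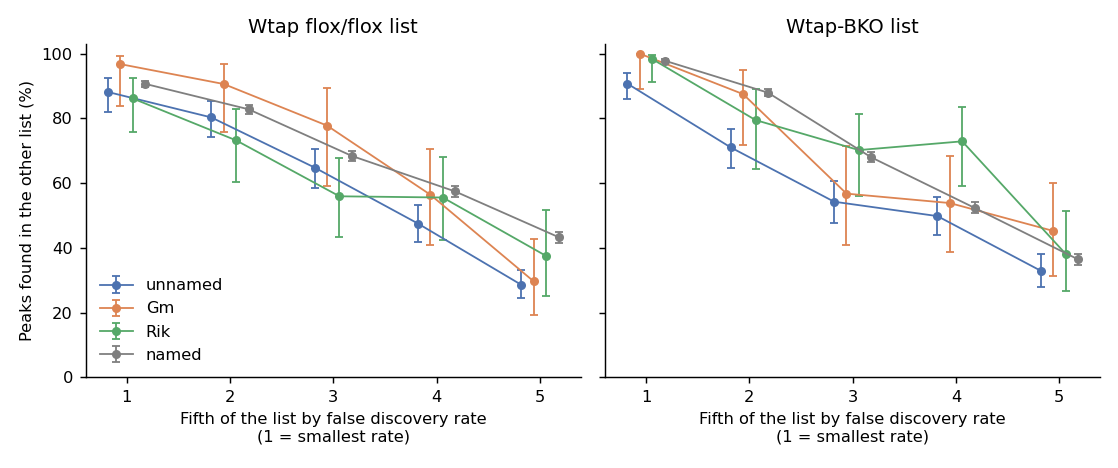
Share of peaks found in the other list (percent, with 95% Wilson intervals) by strength group, where 1 holds the smallest false discovery rates, for each naming class. In the *Wtap* flox/flox list the share of unnamed peaks goes from 88.2% to 28.6% and that of named peaks from 90.7% to 43.3%, and in the *Wtap*-BKO list they go from 90.7% to 32.9% and from 97.9% to 36.5%.

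Counted by gene, 354 of the 948 unnamed genes of the *Wtap* flox/flox list had no peak in the *Wtap*-BKO list (37.3%, 34.3 to 40.5), and 361 of 955 the reverse (37.8%, 34.8 to 40.9). Over all genes these shares were 17.7% and 17.5%. Gm genes lay between, with 26 of 106 (24.5%, 17.3 to 33.5) and 29 of 109 (26.6%, 19.2 to 35.6). Of the Rik genes, 35 of 157 had a peak only in the *Wtap* flox/flox list (22.3%, 16.5 to 29.4) and 22 of 144 only in the *Wtap*-BKO list (15.3%, 10.3 to 22.05). Most unnamed genes had a single peak, and the difference remained among those: 40.3% of unnamed genes with 1 *Wtap* flox/flox peak lacked a peak in the other list, against 25.1% of named genes with 1 peak.

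To see what the unnamed genes were, the centre of each peak was placed in a RefSeq gene table of GRCm38.p6, the build the submitters name. The table gives no strand, so the RefSeq gene at a position need not be the unnamed gene itself. Unnamed peaks lay over a RefSeq lncRNA alone in 300 cases in the *Wtap* flox/flox list and 192 in the *Wtap*-BKO list. Over a pseudogene alone the order was the opposite, with 188 and 320 peaks. Over a single protein-coding gene the counts were 332 and 308, over several genes 333 and 318, and over no gene 108 and 79.

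As a share of the unnamed peaks, lncRNA peaks went from 23.4% to 15.6%, a difference of -7.8 points in the *Wtap*-BKO minus *Wtap* flox/flox direction (Newcombe interval -10.9 to -4.71). Pseudogene peaks went from 14.7% to 26.0%, a difference of 11.3 points (8.19 to 14.4). The share over a protein-coding gene differed by -0.877 points (-4.27 to 2.53) and that over several genes by -0.143 (-3.56 to 3.28). These intervals count peaks of 1 pool per genotype and say nothing of the spread between mice or of a difference between genotypes. They also treat the lists as independent, although matched peaks stand in both. A match counts in both lists, so matched peaks were nearly equal in number by construction, 125 and 127 for lncRNA and 140 and 142 for pseudogene peaks. Unmatched lncRNA peaks numbered 175 in the *Wtap* flox/flox list and 65 in the *Wtap*-BKO list, and unmatched pseudogene peaks 48 and 178. Accordingly 41.7% of the *Wtap* flox/flox lncRNA peaks were found in the other list (36.2 to 47.3) and 74.5% of the pseudogene peaks (67.8 to 80.2), whereas in the *Wtap*-BKO list 66.1% (59.2 to 72.5) and 44.4% (39.0 to 49.8) were found. Over all peaks the shares were 67.8% in the *Wtap* flox/flox list and 68% in the *Wtap*-BKO list. The latter lay within the interval of the *Wtap*-BKO lncRNA share.

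The order was the same among strong peaks. Among peaks with an FDR under 1e-05, lncRNA peaks numbered 136 and 73 and pseudogene peaks 96 and 200 in the *Wtap* flox/flox and *Wtap*-BKO lists, and peaks over a single protein-coding gene 180 and 147. Of these stronger peaks, 61.0% of the *Wtap* flox/flox lncRNA peaks were found in the other list (52.6 to 68.8) against 92.7% of the pseudogene peaks (85.7 to 96.4), and in the *Wtap*-BKO list the shares were 89.0% (79.8 to 94.3) and 59.0% (52.1 to 65.6). The share of all peaks at this limit is not given here. Named peaks of strength groups 1 and 3 were found in 90.7% and 68.4% of cases in the *Wtap* flox/flox list. In the *Wtap*-BKO list these shares were 97.9% and 68.0%. By gene, 99 of 192 unnamed lncRNA genes with a *Wtap* flox/flox peak lacked a *Wtap*-BKO peak (51.6%, 44.5 to 58.5), and 39 of 132 had the reverse (29.5%, 22.4 to 37.8). For pseudogenes these numbers were 35 of 170 (20.6%, 15.2 to 27.3) and 140 of 275 (50.9%, 45.0 to 56.8). Over all genes the shares were 17.7% and 17.5%, so the first pseudogene share was near that of all genes. Pseudogene and lncRNA peaks also differed in enrichment: the median fold of IP over input was 10.5 for lncRNA and 3.635 for pseudogene peaks in the *Wtap* flox/flox list, and 8.405 and 3.13 in the *Wtap*-BKO list.

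**Figure D3:**
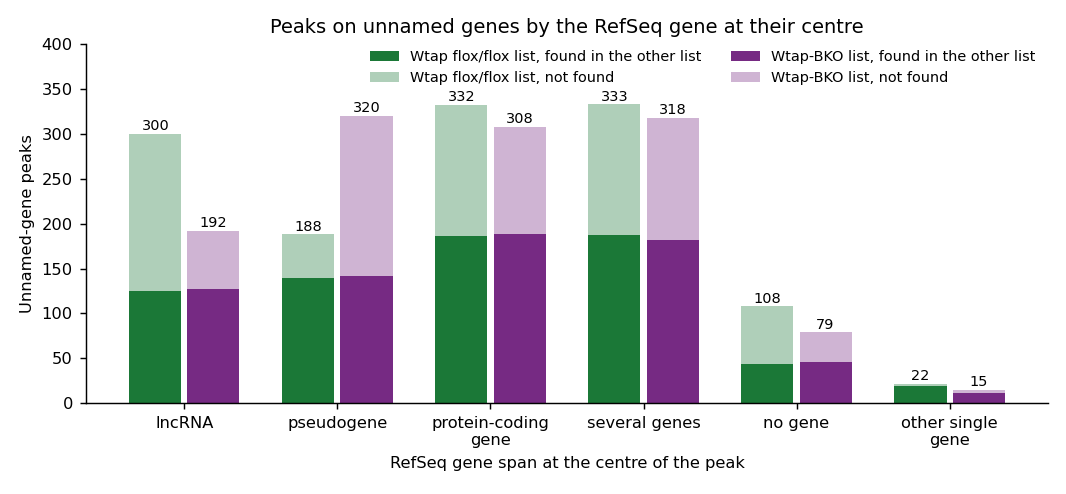
Number of unnamed-gene peaks by the RefSeq gene at the peak centre, in the *Wtap* flox/flox list (green) and the *Wtap*-BKO list (purple), with the dark part found in the other list and the pale part not found. The dark parts are alike because a match counts in both lists, and the pale part is larger in the *Wtap* flox/flox list for lncRNA (175 against 65) and in the *Wtap*-BKO list for pseudogenes (178 against 48).

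Reads from a pseudogene and from its parent are hard to tell apart, so it is uncertain from which copy a pseudogene peak drew its reads, and the part of read placement in these counts was not tested. Nearly all pseudogene peaks were unspliced: 3 of 188 and 6 of 320 had more than 1 block. The RefSeq symbol was a Gm number for 147 and 253 of them and carried the ending -ps with the parent's name for 30 and 55. In the *Wtap*-BKO list the strongest unnamed pseudogene peak on a gene without a *Wtap* flox/flox peak was at chrX:79195190-79195448 (plus strand), over Rps24-ps3, a copy of a ribosomal protein gene. It was 259 bases long with a 2.1-fold enrichment and a log10 FDR of -87.5. Pseudogene peaks present in both lists included that over Atp5k-ps2, a copy of an ATP synthase subunit gene, at chr2:173984482-173984691 (minus strand), with a fold of 2.1 and a log10 FDR of -168 in the *Wtap* flox/flox list. The strongest such peak in the *Wtap*-BKO list lay over Gm5421 at chr10:22343439-22343707 (plus strand) with a log10 FDR of -254, and at chr10:22343439-22343677 it had -145 in the *Wtap* flox/flox list.

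Among the lncRNA peaks on unnamed genes that had a *Wtap* flox/flox peak alone, the strongest was on ENSMUSG00000053214 at chr5:30573987-30574675 (minus strand), in the span of the RefSeq lncRNA Gm9899. It had 689 bases, a fold of 7.74 and a log10 FDR of -80.7, and the gene had 4 peaks there and 0 in the *Wtap*-BKO list. The next 3 genes lay in the spans of Ube2d-ps (an lncRNA by its RefSeq class), A530065N20Rik and Prdm16os. ENSMUSG00000085069, in the span of Prdm16os, a lncRNA next to the brown fat regulator *Prdm16*, had 3 peaks in the former list and 0 in the latter. Its strongest peak was at chr4:154642224-154642879 (plus strand), 656 bases long, with a fold of 10.3 and a log10 FDR of -29.1. In the *Wtap*-BKO list, lncRNA peaks on genes without a *Wtap* flox/flox peak were weaker, the strongest having a log10 FDR of -6.13 (in the span of Gm32200). These examples were chosen after their values were seen.

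The strongest unnamed peaks of the *Wtap* flox/flox list lay in the spans of Neat1, the lncRNA that scaffolds nuclear paraspeckles, and Malat1, an abundant lncRNA of nuclear speckles. ENSMUSG00000092274, in the Neat1 span, had its main peak at chr19:5843080-5844249 (minus strand), 1170 bases with a 7.49-fold enrichment and an FDR given as 0. In the *Wtap*-BKO list the matching peak was at chr19:5843230-5844159, 930 bases with a fold of 5.49 and a log10 FDR of -256. The peak at the upper end of the Neat1 span had the highest fold of the gene in each list. The *Wtap* flox/flox list held it with 10.9 over 181 bases and again with 10.2 over 179 bases. The *Wtap*-BKO list held it with 18.4 over 421 bases and again with 18.8 over 417 bases. In the *Wtap*-BKO list it also covered a second *Wtap* flox/flox peak with a fold of 1.2. The scaling of folds between the lists is not known, so only the order within a list can be read from them.

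ENSMUSG00000092341, in the Malat1 span, had a peak at chr19:5800934-5802282 (minus strand) in the *Wtap* flox/flox list, 1349 bases with a fold of 5.85 and an FDR given as 0. The *Wtap*-BKO list held a peak of 1709 bases there, at chr19:5800964-5802672, with a fold of 7.82 and also an FDR given as 0. Both shared bases with a plus-strand peak of the unnamed gene ENSMUSG00000102349. Each list runs through the chromosomes again in a second section, which held 373 and 351 peaks, and the Neat1 peaks stood in both sections with slightly different borders. The 10 and 8 listed Neat1 peaks thus stood for 5 and 4 stretches. Across the unnamed class, 89 *Wtap* flox/flox and 78 *Wtap*-BKO peaks overlapped another peak of their own gene, and merging these left 1238 and 1193 unnamed peaks.

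**Figure D4:**
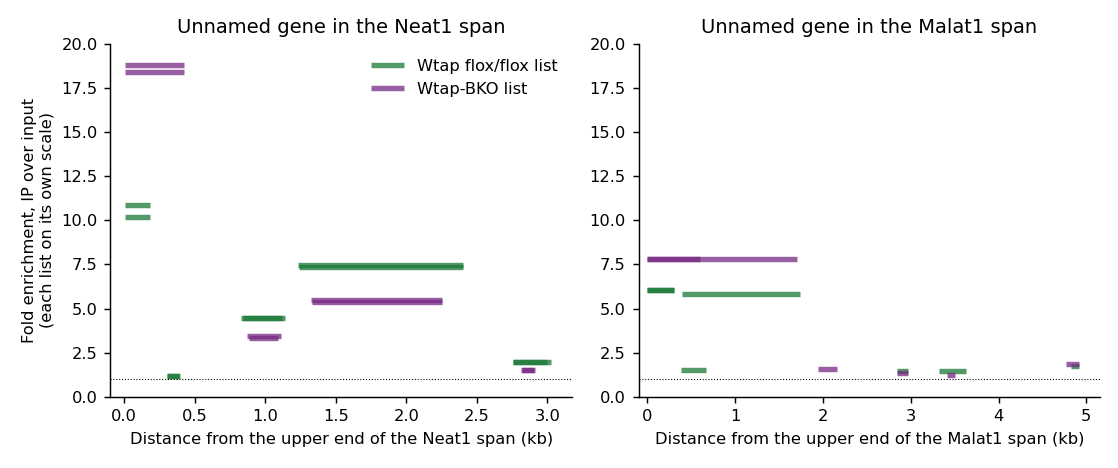
Peaks of the unnamed genes in the Neat1 span (left) and the Malat1 span (right), drawn as bars along the distance from the upper end of the RefSeq span in kb, at the height of their fold enrichment of IP over input (the dotted line is 1). Strong peaks of both lists cover the same stretches. The Neat1 peak nearest the end is listed with folds of 10.9 and 10.2 in the *Wtap* flox/flox list and 18.4 and 18.8 in the *Wtap*-BKO list.

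From a list of 54 known noncoding RNAs, 22 had a peak on an unnamed gene in their span in at least 1 list. ENSMUSG00000056579 had 6 peaks in each list within the span of Tug1, a lncRNA first described in the retina, and 5 of the 6 were found in the other list both ways. Peg13, an imprinted lncRNA inside the *Trappc9* locus, held the longest unnamed peak of each list, 3111 bases at chr15:72806407-72809517 in the *Wtap* flox/flox list and 3141 bases at chr15:72806437-72809577 in the *Wtap*-BKO list (minus strand), with folds of 16 and 20.5. Oip5os1, Chaserr, Kcnq1ot1, Mir22hg, Meg3, Rian, Airn, Dleu2, Snhg18, Lncpint and Norad also had a peak on an unnamed gene in their span in both lists. Other RefSeq genes lay at peaks in the spans of Meg3 (*Rtl1*), Kcnq1ot1 (*Kcnq1*), Dleu2 (*Trim13*), Lncpint (Gm13835), Norad (Gm14170) and Airn (Gm16574). It cannot be told which gene such a peak belongs to. The span of Norad, a cytoplasmic lncRNA that binds PUMILIO proteins, held 3 *Wtap* flox/flox peaks and 1 *Wtap*-BKO peak. The *Wtap* flox/flox peak at chr2:156392020-156392380 had a fold of 11.5 and the *Wtap*-BKO peak at chr2:156391960-156392380 had 6.83. Folds of different lists cannot be compared.

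The other 7 of these noncoding RNAs had peaks in a single list or different peaks in each. H19, the imprinted lncRNA of the *Igf2* locus, had 0 and 3 peaks in the *Wtap* flox/flox and *Wtap*-BKO lists, none stronger than a log10 FDR of -5.69. Mirg, Gas5 and Zfas1 had 1 weak peak in the *Wtap*-BKO list alone, with log10 FDRs of -1.92, -2.41 and -4.68. Jpx, an activator of Xist, had peaks on 2 overlapping unnamed genes of the *Wtap* flox/flox list alone, with log10 FDRs of -2.17 and -1.97, and Ftx had 1 and 2 peaks that shared no base between lists. In the Snhg14 span the lists had peaks on different unnamed genes. Peaks of the *Wtap*-BKO genes there also lay over *Snrpn* and over Gm7367 or Gm18908. The *Wtap*-BKO peak at chr7:60155696-60155984 was the strongest (fold 14, log10 FDR -12.8) and lay in the *Snrpn* span as well. Apart from that peak, all of these had a log10 FDR above -6.

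Other strong unnamed peaks lay outside these loci. The strongest of the *Wtap*-BKO list was on ENSMUSG00000089838 at chr1:170925421-170925644 (minus strand), where RefSeq has *Fcrla* and Gm2962, with a fold of 5.01, and ENSMUSG00000045799 at chr14:8800000-8800279 had a fold of 18.2 with no RefSeq gene at its centre. Both had an FDR given as 0 and a full match in the other list. Among unnamed genes with peaks in the *Wtap* flox/flox list alone, the strongest peak was on ENSMUSG00000085913 at chr14:45595144-45595680 (plus strand), in the *Ddhd1* span, with a fold of 7.22. It shared bases with a peak on the opposite strand. In the *Wtap*-BKO list, after the Rps24-ps3 peak, came ENSMUSG00000081824 at chr16:42955631-42955949 (plus strand), with a fold of 50.8, over Ndufs5-ps within the *Zbtb20* span. The unnamed gene with the most peaks was ENSMUSG00000063286 in the span of Gm8995 on chromosome 7, with 16 and 12 listed peaks, among them a 98.9-fold peak at chr7:106506028-106506505 that lay wholly within a *Wtap*-BKO peak of 2297 bases with a fold of 38.7.

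Many member peaks stood on the same bases as a peak of another gene. The library kit is not described as marking the strand, and without it reads of a gene and of its antisense partner cannot be told apart. Of the unnamed peaks, 352 in the *Wtap* flox/flox list (27.4%, 25.1 to 29.9) and 327 in the *Wtap*-BKO list (26.5%, 24.1 to 29.1) shared bases with a peak on the opposite strand, against 4.87% and 4.13% of named peaks. The pairs covered much the same bases: the median unnamed peak shared 93.3% and 92.3% of its bases with its partner, and the fold lay within 0.5 on the log2 scale of the partner's for 254 of 352 and 236 of 327 pairs. At the Meg3 locus, for example, unnamed genes of the plus and the minus strand had *Wtap* flox/flox peaks at chr12:109571366-109571696 and chr12:109571364-109571693, with folds of 4.87 and 4.68. Unnamed peaks on a protein-coding gene of known strand were mostly antisense to it, 221 against 58 in the *Wtap* flox/flox list and 201 against 50 in the *Wtap*-BKO list. That strand was read from the coding gene's own peaks in these lists, and was unknown for 53 and 57 unnamed peaks. Of the antisense peaks, 169 and 165 shared bases with a named gene's peak on the opposite strand, so they are largely the pairs counted above. Without every peak that overlapped another gene's peak on either strand, 266 and 163 unnamed lncRNA peaks and 181 and 303 pseudogene peaks remained in the 2 lists. Of the unnamed peaks with a partner on the opposite strand, 61.1% of the *Wtap* flox/flox and 67.0% of the *Wtap*-BKO peaks were found in the other list, and of the rest 52.2% and 52.9%.

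Gm peaks overlapped mostly on the same strand. Of these, 113 of 183 *Wtap* flox/flox peaks (61.7%, 54.5 to 68.5) and 108 of 181 *Wtap*-BKO peaks (59.7%, 52.4 to 66.5) lay on bases of another gene's peak on their strand, for 110 and 107 of them a named gene. This share was 4.13% and 3.41% for unnamed, 1.06% and 1.61% for Rik and 2.04% and 1.98% for named peaks. The fold was within 0.5 on the log2 scale of the partner's in 99 of 113 and 95 of 108 pairs. It cannot be told which of the genes such a peak belongs to. Without the overlapping peaks the Gm share found was 57.1% (flox/flox) and 52.1% (BKO) in place of 64.5% and 66.3%, and 70 and 73 Gm peaks remained. Gm38394, which had the most Gm peaks (9 and 7), overlapped peaks of another gene with every peak, all in the span of *Zc3h11a*, which encodes a zinc finger protein of mRNA export. Gm20716, with 5 and 5 peaks, lay over *Adnp* and *Dpm1*.

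**Figure D5:**
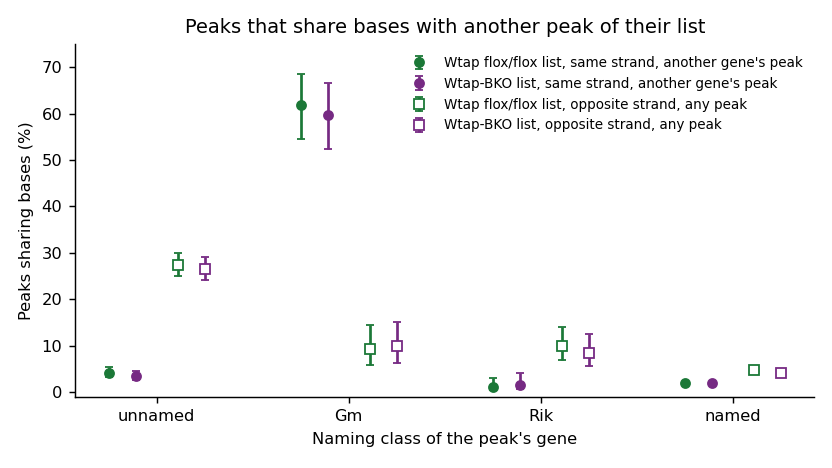
Share of peaks (percent, 95% Wilson intervals) that overlapped another gene's peak on the same strand (filled circles) or with any peak on the opposite strand (open squares) of their own list, by naming class. Gm peaks stand out on the same strand (61.7% and 59.7%) and unnamed peaks on the opposite strand (27.4% and 26.5%).

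The strongest Gm peak of both lists was on Gm10053, a cytochrome c pseudogene by its RefSeq class and deposited domain. It had identical borders, chr19:24875686-24876041 (plus strand), with an FDR given as 0 and folds of 15 and 58.4. Next in the *Wtap* flox/flox list came Gm20388 within *Galnt2* (fold 14.7) and Gm28635 within *Ctnnd1* (fold 16.9), and in the *Wtap*-BKO list Gm20721 within *Gnas* (fold 2.34) and Gm21987 at *Cox17* (fold 4.13). Of these, Gm20388, Gm28635 and Gm21987 overlapped another gene's peak on their strand and Gm20721 a peak on the opposite strand. Gm genes with the strongest peaks in a single list were Gm17018 and Gm43064 (*Wtap* flox/flox, folds 4.07 and 4.01) and Gm29094 and Gm45713 (*Wtap*-BKO, folds 20.9 and 2.77). All 4 overlapped another gene's peak, Gm17018 on the opposite strand and the others on their own.

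By the deposited protein domains, 6 Gm genes were interferon-inducible GTPases, a family that guards cells against intracellular pathogens. All 6 had a peak in both lists. Over all genes, only 17.7% of those with a *Wtap* flox/flox peak and 17.5% of those with a *Wtap*-BKO peak had none in the other list. Peaks in both lists thus do not set these genes apart. The 6 genes held 12 *Wtap* flox/flox and 16 *Wtap*-BKO peaks. Gm5431 had 2 and 6 of them, Gm12185 2 and 3, Gm4841 1 and 2, Gm4070 and Gm43302 2 and 2 each, and Gm4951 3 and 1. Among Rik genes, F830016B08Rik had the same domain, with 2 and 4 peaks. The 9 Gm genes with a zinc finger domain held 22 and 12 peaks and the 11 such Rik genes 25 and 21. Most of these Gm peaks were on 2 genes, Gm38394 (9 and 7) and Gm21992 (5 and 1). These domain groups were formed after the data were seen. Of the 135 Gm genes, 82 were not in the RefSeq table under their symbol, and 28 were protein coding there.

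Rik genes were largely ordinary protein-coding genes: 158 of 179 had that class in RefSeq, and 34 were listed there under a newer symbol. The strongest Rik peak of the *Wtap* flox/flox list was on 8430408G22Rik, now *Depp1*, a gene regulated by FOXO factors, at chr6:116651850-116652735 (plus strand), 886 bases with a fold of 6.73 and an FDR given as 0. Its strongest *Wtap*-BKO peak was another one, at chr6:116650668-116650845, 178 bases with a fold of 3.52 and a log10 FDR of -212. On 1600012H06Rik the top peak was at the same place in both lists, chr17:14943665-14944294 and chr17:14943725-14944264 (plus strand), with folds of 17 and 7.91. The other leading Rik peaks were on 0610012G03Rik (fold 4.69, *Wtap* flox/flox) and 2010003K11Rik (fold 4.92, *Wtap*-BKO).

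Rik genes with the strongest peaks in a single list included 1110065P20Rik (fold 4.3, log10 FDR -71.4) and 6430571L13Rik (fold 9.64, log10 FDR -48.1) in the *Wtap* flox/flox list, the former sharing bases with a peak on the opposite strand. Their counterparts in the *Wtap*-BKO list were weaker, 1110004E09Rik, now *Cfap298*, with a log10 FDR of -10.2, and 2410015M20Rik, now *Micos13*, a subunit of the complex that shapes mitochondrial cristae, with -7.91. The most peaks were on 9930021J03Rik, with a bromodomain (8 and 8), and on 2900026A02Rik, with a tankyrase-binding domain (8 and 7). Of the 9930021J03Rik peaks, 8 of 8 in each list had a match in the other. The highest fold was 42.7 at chr19:29718349-29718678 in the *Wtap* flox/flox list, where the *Wtap*-BKO peak at chr19:29718349-29718588 had 3.67. The highest *Wtap*-BKO fold, 38.7, belonged to its next peak, chr19:29718977-29719455. Other Rik genes with a current name included 4931406P16Rik (*Garre1*, 6 and 5 peaks), 2810474O19Rik (*Resf1*, 5 and 5) and 1500011K16Rik (*Mtln*, 1 and 2), which encodes the mitochondrial micropeptide mitoregulin.

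Where a match was found, it was nearly always on the same gene for unnamed peaks (685 of 701 and 686 of 698) and Rik peaks (176 of 178 and 178 of 179), and less so for Gm peaks (86 of 118 and 88 of 120). Matched unnamed peaks of the *Wtap* flox/flox list shared a median of 91.7% of their bases with the other list, against 82.9% for Gm, 79.3% for Rik and 86.7% for named peaks. In the *Wtap*-BKO list the order differed, with the unnamed class lowest. The medians there were 90.7% for unnamed, 100% for Gm, 100% for Rik and 94.1% for named peaks.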

How the data were processed

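The data were 2 deposited peak lists, each called by the authors on 1 pooled IP against 1 pooled input. Per the submitters' processing notes, reads were handled with fastp 0.19.11, BWA 0.7.12 and HOMER 4.9.1 on GRCm38.p6. The methods name MACS2, but the spliced blocks on Ensembl genes have the layout of another caller, and which caller made the lists was not settled. The deposited p-value is that of each peak, 2 deposited score columns hold log10 p-values and log10 FDRs, and the deposited fold is a ratio of IP over input whose scaling is not given in the sources used here. The authors had filtered the lists at an FDR of 0.05. Each list holds a second section in chromosome order, kept as deposited. No column compares the genotypes. Depth is unknown.

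Peaks were matched and counted with pandas 2.3.3, numpy 2.4.6 and scipy 1.17.1 in Python 3.11.15. Figures were made in matplotlib 3.10.9. Shares have 95% Wilson intervals and differences Newcombe intervals, which cover counting error only, and no test was made. The matching was tested on simulated copies of the unspliced *Wtap* flox/flox peaks, kept, shortened, flipped or removed, and found each as simulated. Spliced peaks were not part of that test. Shares at the mix of another class weight named peaks to the strength groups and length bands (under 150, 150 to under 300, 300 bases or more) of the class. Alternatives changed the match rule, the FDR limit, overlapping or repeated peaks and spliced peaks. Merged peaks, leaving out the second section and all settings for the RefSeq kinds were added after seeing the data. Of the peaks with a symbol in the RefSeq table, 98.3% and 98.2% lay in their gene's span. The table holds no Ensembl identifiers, so unnamed genes were described by position only.

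The members, gene lists and settings were chosen with earlier results of these data known. Named in the text were, per class and list, the 3 peaks of smallest FDR and the 2 strongest on genes found in that list alone, the 2 genes per class with the most peaks, and listed noncoding RNAs with a peak. Of that list of 54, 2 were not in the table. Examples by RefSeq kind, domain groups and symbol endings were chosen after their values were seen. Gene sequences were not used here.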

Additional observations from a re-analysis of the deposited data

How the results depend on the processing

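The share found moved most with the match rule and the FDR limit. When any peak on the same gene counted, it was 66.2% for unnamed, 83.6% for Gm and 84.4% for Rik peaks of the *Wtap* flox/flox list and 67.7%, 82.3% and 89.96% of the *Wtap*-BKO list. When 50% of the peak had to be shared, it was 47.0%, 54.1% and 54.3% in the *Wtap* flox/flox list and 50.9% for unnamed *Wtap*-BKO peaks. With an FDR under 1e-05, looked for among all peaks, the values were 74.3%, 86.2% and 72.4%, and 72.4%, 79.6% and 85.5%. With that limit in both lists, the Rik share of the *Wtap* flox/flox list was 57.3%. With 1 peak per gene, the *Wtap* flox/flox shares were 58.1% for unnamed and 72.6% for Gm genes. Weighted to the strength and length of named peaks, the unnamed shares were 62.2% and 61.9%. Without peaks on bases of another gene's peak, the Gm shares were 57.1% and 52.1%, from 70 and 73 peaks.

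The FDR limit of 1e-05 left 618 unnamed, 94 Gm and 185 Rik peaks of the *Wtap* flox/flox list, with medians of 282, 329.5 and 360 bases, and 626, 98 and 138 peaks of the *Wtap*-BKO list, with medians of 259, 268.5 and 320.5 bases. Genes in a single list, looked for among all peaks of the other, then numbered 100, 7 and 18 (*Wtap* flox/flox) and 123, 11 and 5 (*Wtap*-BKO). The share over all genes at this limit is not given here, so these counts cannot set the classes apart from other genes. With 1 peak per gene, the *Wtap* flox/flox medians were 240.5 bases for Gm and 331 for Rik. With the same FDR limit, chosen after seeing the data, unnamed lncRNA peaks numbered 136 and 73 and pseudogene peaks 96 and 200. Under the other 87 combinations of value and setting, shares and medians stayed within their 95% intervals and counts within 1.5 times. The causes of these shifts were not tested beyond the smaller number of peaks that a stricter limit leaves.

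No paired analysis was possible because each genotype has a single pooled list, and no replicate was there to leave out. Read totals are unknown, so no limit of detection can be given for a peak absent from a list.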

Other observations

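The members made up 9.5% of all *Wtap* flox/flox and 8.89% of all *Wtap*-BKO peaks. Their share of the peaks of a chromosome was highest on chromosome X in both lists. It was 49 of 416 peaks in the *Wtap* flox/flox list (11.8%, Wilson interval 9.03 to 15.2), close to the 11.2% of chromosomes 5 and 14. In the *Wtap*-BKO list it was 67 of 465 (14.4%, 11.5 to 17.9), of which 57 were on unnamed genes. The interval for chromosome X held the share of the whole list in the *Wtap* flox/flox list but not in the *Wtap*-BKO list. The member share was lowest on chromosome 10 in the *Wtap* flox/flox list (6.90%) and on chromosome 15 in the *Wtap*-BKO list (43 of 729, 5.90%), apart from chromosomes without a member. No test was made.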
